A study of Mus musculus with 15 samples.

Results

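Serum response factor (Srf) and 7 genes of focal adhesions and the actin cytoskeleton that are known or proposed SRF targets were followed in cells that lack beta-actin: Vcl, Flna, Zyx, Fhl1, Fhl2, Tgfb1i1 and Ldb3. They were taken by name, 8 of the 46603 gene IDs counted, and all 8 were among the 15296 genes with enough counts to be tested. The cells were mouse embryonic fibroblasts from BALB/c embryos 10.5 days old, knockout (KO), heterozygous (HET) or wild type (WT) for the beta-actin gene Actb. On Matrigel, all of them were grown to confluence and then switched at day 0 to a commercial osteogenic medium with dexamethasone and forskolin, with the aim of turning them into osteoblasts. RNA was taken from KO, HET and WT cells at day 14 and from KO and WT cells at day 4, with 3 libraries per group and 15 in all. The labels name no embryo, clone or culture for a library, so the p-values measure the spread between these libraries, which may be technical. Every group was in this medium, and cells outside it, and HET cells at day 4, were not analysed here.

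SRF is a transcription factor that binds a short AT-rich element called the CArG box. It works with either of 2 kinds of partner. Myocardin-related factors (MRTF) are held back by monomeric actin and drive genes of the cytoskeleton and of contraction, while ternary complex factors (TCF) answer to growth factor signalling and drive immediate early genes. Focal adhesions are the sites where integrins couple the extracellular matrix to actin filaments, and many of their proteins carry LIM domains, which are zinc-binding protein interaction folds.

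The CArG box was searched in the promoter windows of RefSeq (GRCm38.p6; 250 bases before to 50 after a start site), since it is the element through which SRF acts. A box was counted as CC, then 6 bases that are each A or T, then GG, a definition that reads the same on both strands. A window was found for 7 of the 8 genes, all but Tgfb1i1, and 5 of these 7 held a box. Of the 27025 genes with a window, 1.81% held one, but the 8 genes had been named for their tie to SRF, so this share is a description. Srf held 2 boxes, starting at -82 and -62 relative to its start site, in chr17:46556190-46556269 on the minus strand. The Vcl box lay far upstream, at -227, in chr14:20929148-20929205 on the plus strand. In Fhl1 it lay at -102 of the first of the 2 start sites with a window, in chrX:56779556-56779615 on the plus strand. Both Fhl1 windows lay inside the annotated gene, which begins upstream at chrX:56731787. Fhl2 had a box at each of 2 start sites, at -96 in chr1:43196823-43196882 and at -31 in chr1:43163958-43164017, both on the minus strand. The single Ldb3 box, in chr14:34588682-34588741 on the minus strand, lay at -35 of one start site and at -109 of another. The windows of Flna and Zyx held no such letters. The Flna window, chrX:74246485-74246784 on the minus strand, lay inside the annotated gene. The sequence before the annotated 5' end of Flna, at 74249820, was not searched. The Zyx window, chr6:42349578-42349877 on the plus strand, lay mostly inside the annotated gene, which begins at 42349630. Sequence further upstream of Zyx was not searched either. The stretches around the boxes are shown to let them be compared, with the boxes in capitals.
Srf: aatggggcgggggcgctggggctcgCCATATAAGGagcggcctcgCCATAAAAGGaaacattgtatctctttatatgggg
Vcl: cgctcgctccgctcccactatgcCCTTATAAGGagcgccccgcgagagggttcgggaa
Fhl1: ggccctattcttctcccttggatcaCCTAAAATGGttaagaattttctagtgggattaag
Fhl2 first start site: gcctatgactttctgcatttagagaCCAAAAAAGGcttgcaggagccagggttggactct
Fhl2 second start site: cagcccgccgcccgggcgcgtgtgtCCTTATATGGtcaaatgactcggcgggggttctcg
Ldb3: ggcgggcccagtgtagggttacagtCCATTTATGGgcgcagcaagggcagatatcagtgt

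**Figure D1:**
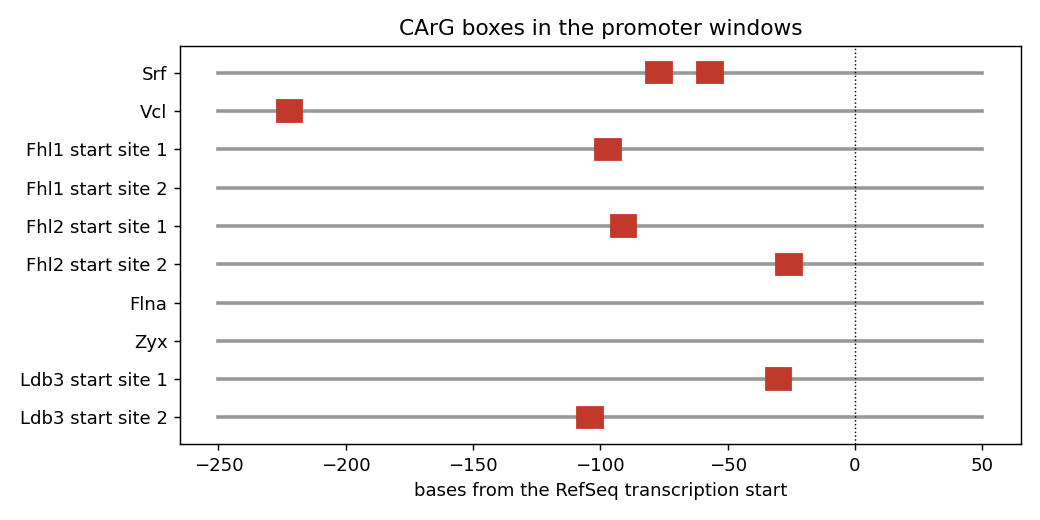
Position of CArG boxes (red blocks) in the promoter windows of 7 of the genes; the x axis gives bases from the RefSeq start site (dotted line) and each grey line is 1 window. Srf holds 2 boxes at -82 and -62, and the lines of Flna, Zyx and the second Fhl1 start site are empty.

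The targeted gene followed the labels. Actb averaged 44.7 ± 1.74 CPM (counts scaled to a common library size) in KO, 1522 ± 107 CPM in HET and 2996 ± 62.6 CPM in WT libraries of day 14, and 134 ± 4.38 CPM in KO and 1181 ± 15.1 CPM in WT libraries of day 4 (SD, n = 3 each). Libraries held 19878449 to 47486736 counts. HET replicate 2 stood apart from the other HET libraries: a chi-square test of its counts gave 50.1 and 50.4 per degree of freedom against them, while HET replicates 1 and 3 gave 2.89 against each other. Pairs of WT libraries of day 14 gave 5.02 to 18.6, and the KO pairs and WT pairs of day 4 gave 2.15 to 2.99. Values that turn on HET replicate 2 are given with and without it. The share of mitochondrial counts moved with genotype: it was 1.08% to 1.12% in KO, 0.729% to 0.851% in HET and 0.484% to 0.542% in WT libraries of day 14, and 0.836% to 0.845% in KO and 0.415% to 0.421% in WT libraries of day 4. Ribosomal protein genes took 2.13% to 2.14% of counts in KO, 3% to 4.28% in HET and 3.22% to 4.01% in WT libraries of day 14, and 2.34% in KO and 2.28% to 2.29% in WT libraries of day 4. The part of these shares in the genotype differences below was not tested.

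The knockout cells at day 4 held the highest mean level of each of the 8 genes. Fhl1, Tgfb1i1 and Ldb3 stood far above WT at that day, and Srf, Vcl, Fhl2 and Flna by 1.47-fold to 2.41-fold, while Zyx gave no call. At day 14 the directions differed: Vcl, Flna, Fhl1, Fhl2, Zyx and Ldb3 were higher in KO than in WT, Tgfb1i1 was lower, and Srf gave no call. In heterozygous cells Fhl1, Flna and Tgfb1i1 lay below WT and Fhl2 and Zyx above it.

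**Figure D2:**
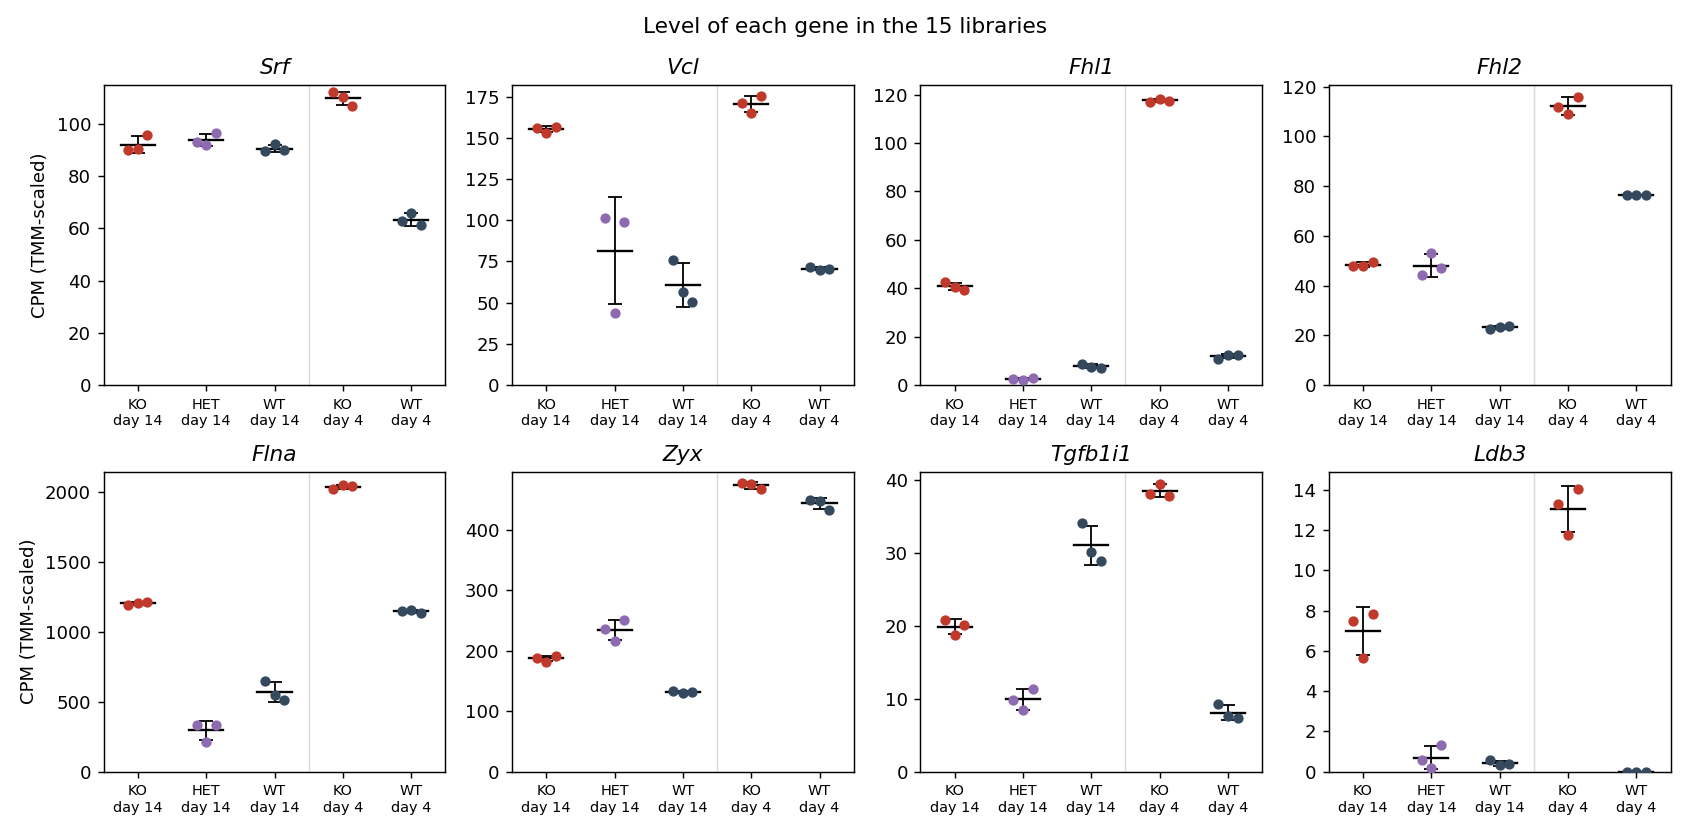
TMM-scaled CPM of each gene in every library (points; red KO, purple HET, dark blue WT), with the group mean (line) and SD (error bar, n = 3); each y axis starts at 0 and has its own scale. KO libraries of day 4 carry the highest mean in all 8 panels, HET libraries carry the lowest in the Fhl1 and Flna panels, and the HET points of Vcl spread from 43.8 to 101 CPM.

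Srf (ENSMUSG00000015605, chr17:46548329-46556175, minus strand, GRCm38) differed between genotypes at day 4 and not measurably at day 14. At day 14 it had 90.0, 90.3 and 95.8 CPM in KO, 93.0, 92.1 and 96.6 CPM in HET and 89.7, 92.1 and 89.9 CPM in WT libraries. The 3 genotypes overlapped. KO over WT was 0.02 ± 0.05 (log2 fold change ± SE; edgeR adjusted p = 0.7; 95% interval -0.08 to 0.13), and HET over WT was 0.05 ± 0.05 (edgeR adjusted p = 0.385; interval -0.05 to 0.16). Srf had 112, 110.2 and 107 CPM in KO and 62.7, 66.0 and 61.3 CPM in WT libraries of day 4. All KO libraries lay above all WT libraries, by 0.79 ± 0.05 on the log2 scale or 1.73-fold (edgeR adjusted p = 5.72e-10). Day 14 over day 4 was -0.25 ± 0.05 in KO cells and 0.51 ± 0.05 in WT cells, so that Srf fell in the knockout and rose in the wild type (log2; edgeR adjusted p = 0.000286 and 1.01e-07). In this bulk RNA, more RNA per cell and more cells of a type cannot be told apart, for Srf and for every gene below.

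The RNA of vinculin, a protein that binds talin and actin and strengthens adhesions under load, was higher in KO cells at both days. Its gene Vcl (ENSMUSG00000021823, chr14:20929398-21033676, plus strand) had 156, 153 and 157 CPM in KO, 101, 43.8 and 98.9 CPM in HET and 75.6, 56.2 and 50.4 CPM in WT libraries of day 14. The KO libraries were above all others, and HET replicates 1 and 3 lay above all WT libraries and HET replicate 2 below them. At day 4, Vcl had 171, 165 and 175 CPM in KO and 71.7, 69.8 and 70.5 CPM in WT libraries, with no overlap. KO over WT was 1.35 ± 0.22 at day 14 and 1.27 ± 0.21 at day 4 (log2; edgeR adjusted p = 5.46e-05 and 6.14e-05), and the days did not differ measurably in this (interaction 0.08 ± 0.30, edgeR adjusted p = 0.826, interval -0.55 to 0.72). HET over WT was 0.42 ± 0.22 (edgeR adjusted p = 0.106). Without HET replicate 2 it was 0.72 (edgeR adjusted p = 1.93e-05), and without WT replicate 1 of day 14 it was 0.61 (edgeR adjusted p = 0.0342). The annotation has 25.5% of the Vcl exon bases in common with Ap3m1 on the other strand, and the library kit does not keep strand. Ap3m1 itself averaged 60.8 ± 0.702 CPM in KO and 49.9 ± 6.46 CPM in WT libraries of day 14, and 45.0 ± 0.345 CPM in KO and 51.2 ± 1.19 CPM in WT libraries of day 4.

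The RNA of filamin A, the main crosslinker of actin filaments into networks, moved in opposite directions in knockout and heterozygous cells. Flna (ENSMUSG00000031328, chrX:74223461-74249820, minus strand) had 1195, 1207 and 1218 CPM in KO, 338, 216 and 332 CPM in HET and 651.5, 553 and 513 CPM in WT libraries of day 14. At day 4 it had 2024, 2054 and 2043 CPM in KO and 1151, 1157 and 1134 CPM in WT libraries. None of these groups overlapped another of the same day. At day 14 Flna was 2.11-fold higher in KO than in WT (1.08 ± 0.12 log2, edgeR adjusted p = 1.76e-06) and 1.94-fold lower in HET than in WT (-0.95 ± 0.12 log2, edgeR adjusted p = 7.22e-06). Without HET replicate 2 the HET difference was -0.77. At day 4 KO was 1.78-fold above WT (0.83 ± 0.12 log2, edgeR adjusted p = 1.72e-05).

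The RNA of zyxin, a LIM protein of adhesions and stress fibres that recruits actin assembly factors, had the smallest genotype difference of the 8 genes at day 4. Zyx (ENSMUSG00000029860, chr6:42349630-42360213, plus strand) had 477, 476 and 467 CPM in KO and 449, 448 and 433.5 CPM in WT libraries of day 4. The groups did not overlap, but the difference of 0.09 ± 0.05 did not pass the test across all genes (log2; edgeR adjusted p = 0.113; interval -0.01 to 0.20). It passed when only these groups were fitted (0.08, edgeR adjusted p = 4.12e-05) and when libraries were scaled by their total counts alone (0.24, edgeR adjusted p = 0.00174). Levels at day 14 were 189, 182 and 191 CPM in KO, 236, 216 and 251 CPM in HET and 133, 130.1 and 132 CPM in WT libraries. HET was highest and WT lowest, with no overlap. The log2 difference from WT was 0.51 ± 0.05 for KO cells (edgeR adjusted p = 4.65e-07) and 0.83 ± 0.05 for HET cells (edgeR adjusted p = 1.65e-09), and KO over HET was -0.32 ± 0.05 (edgeR adjusted p = 5.58e-05). Epha1 on the other strand has 4.38% of the Zyx exon bases in common and averaged at most 1.94 CPM in any group.

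Fhl1, a member of the LIM-only FHL family that is abundant in skeletal muscle, had the largest log2 difference between KO and HET of the 8 genes. Fhl1 (ENSMUSG00000023092, chrX:56731787-56793346, plus strand) had 42.5, 40.3 and 39.3 CPM in KO, 2.40, 2.26 and 2.79 CPM in HET and 8.82, 7.47 and 7.20 CPM in WT libraries of day 14. The 3 genotypes stood apart, with KO above WT and HET below it. In day 4 libraries it had 117, 118 and 118 CPM in KO and 10.9, 12.5 and 12.3 CPM in WT. KO over WT was 5.20-fold at day 14 and 9.92-fold at day 4 (2.38 ± 0.08 and 3.31 ± 0.08 log2, edgeR adjusted p = 2.29e-12 and 8.51e-15). HET was 3.14-fold below WT (-1.65 ± 0.11 log2, edgeR adjusted p = 5.74e-09), and KO was 16.3-fold above HET (edgeR adjusted p = 4.1e-14).

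Its relative Fhl2, a cofactor of several transcription factors that is induced by actin signalling, differed from Fhl1 in the heterozygous cells. Fhl2 (ENSMUSG00000008136, chr1:43123074-43196984, minus strand) had 48.1, 47.7 and 49.5 CPM in KO, 44.2, 53.1 and 47.0 CPM in HET and 22.5, 23.5 and 23.6 CPM in WT libraries of day 14. KO and HET overlapped each other, and both lay above WT. The log2 difference from WT was 1.06 ± 0.06 for KO cells (edgeR adjusted p = 1.19e-09) and 1.05 ± 0.07 for HET cells (edgeR adjusted p = 1.57e-09), and KO over HET was 0.01 ± 0.06 (edgeR adjusted p = 0.886, interval -0.12 to 0.14). Day 4 libraries had 112, 109 and 116 CPM in KO and 76.6, 76.5 and 76.6 CPM in WT, and KO was 1.47-fold higher (0.55 ± 0.06 log2, edgeR adjusted p = 5.31e-07).

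Tgfb1i1 encodes Hic-5, a LIM protein of the paxillin family that moves between focal adhesions and the nucleus, and it was the only one of the 8 genes called in opposite directions between KO and WT at the 2 days. Tgfb1i1 (ENSMUSG00000030782, chr7:128246812-128255699, plus strand) had 20.7, 18.8 and 20.2 CPM in KO, 9.87, 8.46 and 11.4 CPM in HET and 34.0, 30.2 and 28.8 CPM in WT libraries of day 14. At day 4 it had 38.1, 39.5 and 37.8 CPM in KO and 9.33, 7.58 and 7.37 CPM in WT libraries. No groups of a day overlapped: WT was the highest group at day 14 and the lower of the pair at day 4. KO over WT was -0.64 ± 0.10 at day 14 and 2.24 ± 0.11 at day 4 (log2; edgeR adjusted p = 5.81e-05 and 2.53e-11). HET lay further below WT than KO did: it was 3.12-fold below WT (-1.64 ± 0.11 log2, edgeR adjusted p = 3.95e-09), and KO was above HET (1.00 ± 0.11 log2, edgeR adjusted p = 1.37e-06).

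Ldb3 encodes a PDZ and LIM domain protein of the Z-disc in striated muscle, and its counts came mostly from knockout cells. Ldb3 (ENSMUSG00000021798, chr14:34526603-34588682, minus strand) had 7.48, 5.63 and 7.83 CPM in KO, 0.575, 0.210 and 1.31 CPM in HET and 0.560, 0.325 and 0.374 CPM in WT libraries of day 14. KO stood above both other genotypes, which overlapped. It had 13.3, 11.8 and 14.0 CPM in KO libraries of day 4 and no count in any WT library of that day. Set against a floor of 3 counts over the WT group (0.0283 CPM), KO was at least 462-fold higher at day 4. At day 14 it was 16.5-fold above WT (4.04 ± 0.36 log2, edgeR adjusted p = 3.29e-07) and 9.66-fold above HET (3.27 ± 0.33 log2, edgeR adjusted p = 1.21e-06). KO over HET was 4.11 without HET replicate 3, and 2.87 to 3.40 when any other library was left out (log2). HET over WT was 0.77 ± 0.52 (log2, edgeR adjusted p = 0.219), and this value rested on single libraries: it was 1.17 without HET replicate 2 (edgeR adjusted p = 0.0197) and -0.07 without HET replicate 3 (edgeR adjusted p = 0.924).

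Knockout against wild type at day 14 gave 7 of the 8 genes past the threshold (edgeR adjusted p under 0.05), 6 higher and 1 lower. Of all genes tested in this comparison, 30.9% were called higher and 32.2% lower. At day 4, 7 of 8 were called, all higher, against a background of 35.7% higher and 33.8% lower. The median log2 difference of the 8 genes was 1.07 at day 14 and 1.05 at day 4, beside -0.02 and 0.03 over all genes tested, and setting Ldb3 at its bound left the day 4 median at 1.05. Calls were common in both comparisons, so the count is read together with the direction and the sizes. The 8 genes and the lists below were chosen with earlier results of these data known, so their counts and medians are descriptions.

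Heterozygous against wild type cells at day 14 gave 5 of 8 genes past the threshold, 2 higher and 3 lower, with 28.3% and 29.9% of all genes called in those directions. The median of the 8 was 0.24, beside -0.02 over all genes. Without HET replicate 2, 7 of 8 were called, 4 higher and 3 lower. Knockout against heterozygous cells gave 6 of 8, 5 higher and 1 lower, with 29.4% and 30.1% of all genes called, and a median of 0.97 beside -0.01. The 3 comparisons of day 14 share libraries in pairs, so their values are set side by side and are not independent. Heterozygous cells held an Actb level between KO and WT, but their mean level lay between those of KO and WT only for Vcl, Fhl2 and Ldb3. Of these, Fhl2 could not be told apart from KO. Vcl and Ldb3 were not called between HET and WT in the main fit (edgeR adjusted p = 0.106 and 0.219). They were called without HET replicate 2 (edgeR adjusted p = 1.93e-05 and 0.0197). Fhl1, Flna and Tgfb1i1 were lower in HET than in either homozygous group, and Zyx and Srf had their highest mean of the day there.

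**Figure D3:**
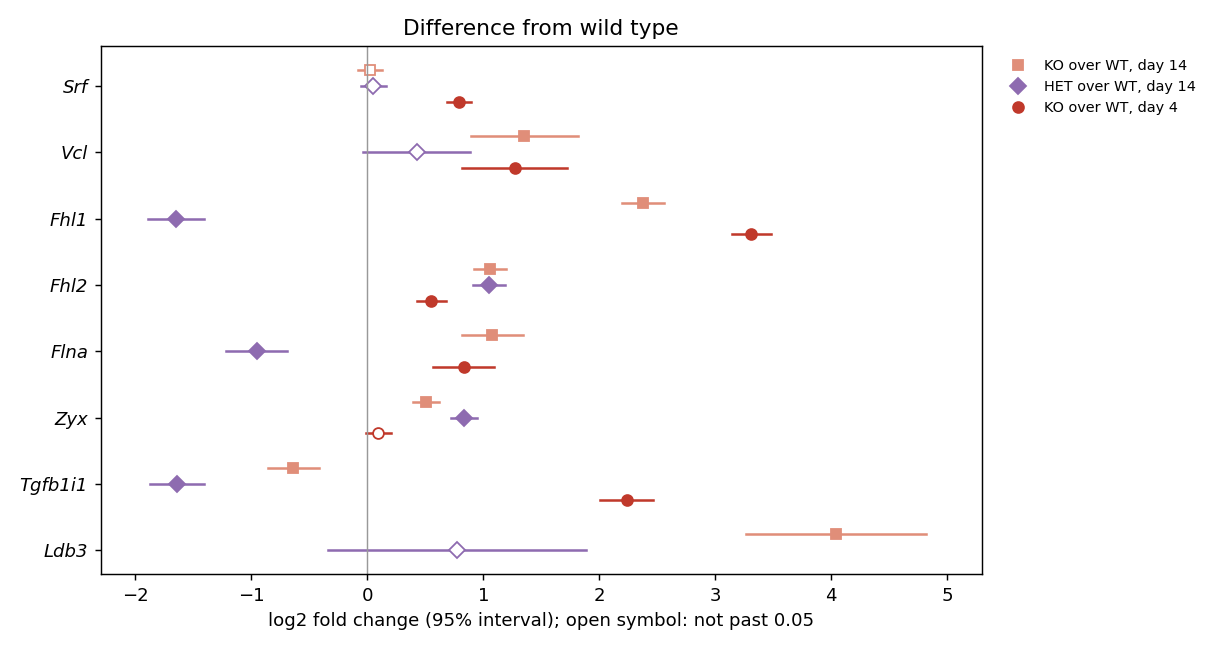
Log2 fold change over WT with its 95% interval for each gene, in KO at day 14 (squares), HET at day 14 (diamonds) and KO at day 4 (circles); open symbols did not pass an edgeR adjusted p of 0.05. Ldb3 at day 4 is left out because WT had no count; Fhl1 and Flna lie right of 0 in KO and left of 0 in HET, and Tgfb1i1 lies left of 0 in both genotypes at day 14 and right of 0 at day 4.

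Between day 14 and day 4 the genes fell in knockout cells and went in different directions in wild type cells. In KO, 7 of 8 were lower at day 14 and none higher, with 30.1% of all genes called lower and 30.8% higher. The change was largest for Fhl1, at -1.53 ± 0.07, followed by Zyx at -1.34 ± 0.05 and Fhl2 at -1.21 ± 0.06 (log2; edgeR adjusted p = 4.75e-11, 3.72e-12 and 9.6e-11). Vcl, at -0.13 ± 0.21, was not called (edgeR adjusted p = 0.597), though its KO libraries of day 14 all lay below those of day 4. In WT, 3 were higher and 4 lower at day 14, with 39.7% and 34.9% of all genes called in those directions. Ldb3 was among the 3, with 27 counts over the WT group of day 14 and 0 at day 4, which was tested through its level in KO; with only the WT groups fitted it was not tested, and 2 were higher and 4 lower. Srf and Tgfb1i1 rose there, Tgfb1i1 by 1.93 ± 0.11 (log2, edgeR adjusted p = 1.81e-10), and Ldb3 was at least 14.8-fold higher at day 14 than the floor of 3 counts over the WT group of day 4. The genes that fell in WT were Zyx at -1.75 ± 0.05, Fhl2 at -1.72 ± 0.06, Flna with an interval of -1.27 to -0.74 and Fhl1 at -0.60 ± 0.09 (log2; edgeR adjusted p = 1.41e-13, 1.6e-12, 2.02e-06 and 1.44e-05).

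The test of the difference between these changes, the interaction of genotype and day, was passed by 6 of the 8 genes, 2 with a higher and 4 with a lower value in KO. Of all genes, 30.7% and 34.0% passed in those directions. Of all genes that passed, 47.4% had a higher value in KO, or 37% when libraries were scaled by their total counts alone. Tgfb1i1 had the largest interaction among the genes with counts in every group (-2.88 ± 0.15 log2, edgeR adjusted p = 1.23e-10), since it fell in KO and rose in WT. Srf (-0.77 ± 0.07) and Fhl1 (-0.93 ± 0.11) also had a lower change in KO, and Fhl2 (0.51 ± 0.09) and Zyx (0.41 ± 0.07) fell less in KO than in WT (log2; edgeR adjusted p = 7.92e-08, 2.8e-06, 0.000102 and 0.000115). Vcl and Flna did not pass, with 0.08 ± 0.30 and 0.25 ± 0.17 (edgeR adjusted p = 0.826 and 0.227).

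**Figure D4:**
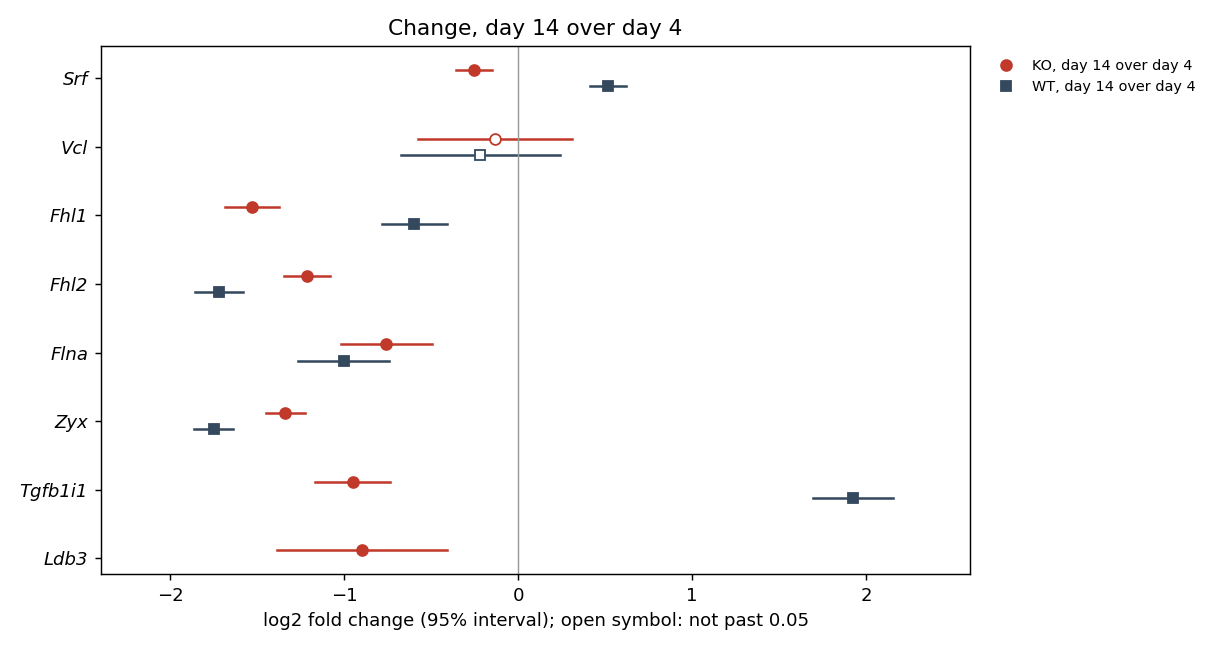
Log2 fold change of day 14 over day 4 with its 95% interval in KO (circles) and WT (squares); open symbols did not pass an edgeR adjusted p of 0.05. All KO symbols lie left of 0, while Srf and Tgfb1i1 lie right of 0 in WT; Ldb3 in WT is left out because day 4 had no count.

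Set in order, the 5 group means ran from KO at day 4 downwards in every gene, but neighbouring groups were not always called different. For each gene the tests share a single estimate of the spread over all groups. For Vcl and Flna the spread was wider in HET and WT libraries of day 14 than in the other groups. For Srf, the HET, KO and WT groups of day 14 did not differ (edgeR adjusted p = 0.636 and 0.7 between neighbours), and WT at day 4 was lowest. For Vcl, KO at day 4 and KO at day 14 were not called different (edgeR adjusted p = 0.597). Their libraries did not overlap, with 165 to 175 CPM at day 4 and 153 to 157 CPM at day 14. Below them lay HET at day 14, WT at day 4 and WT at day 14, with no call between neighbours (edgeR adjusted p = 0.394 and 0.369). Without HET replicate 2, Vcl was called higher in HET than in WT at day 14 (0.72 log2, edgeR adjusted p = 1.93e-05). Flna was not called different between KO cells at day 14 and WT cells at day 4 (0.07 ± 0.12 log2, edgeR adjusted p = 0.606). The libraries did not overlap, with 1195 to 1218 CPM in KO at day 14 and 1134 to 1157 CPM in WT at day 4. All neighbours in the order differed for Fhl1 and Tgfb1i1. Highest over lowest group mean was 47.4-fold for Fhl1, 6.90-fold for Flna, 4.84-fold for Fhl2, 4.75-fold for Tgfb1i1, 3.59-fold for Zyx, 2.81-fold for Vcl and 1.73-fold for Srf.

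Levels of different genes were compared per kilobase of annotated exon. The length was that of all annotated exons merged, not of the transcripts present in these cells, so the ranks depend on the annotation. On this scale Flna was first of the 8 in KO and WT cells at both days, with 128 and 60.9 CPM per kb in KO and WT at day 14 and 217 and 122 CPM per kb in KO and WT at day 4. In HET cells Zyx was first (43.5 CPM per kb), then Srf (32.5) and Flna (31.4). Ldb3 was last in every group, at 2.13 CPM per kb where it was highest. Fhl1 stood above Vcl only in KO cells of day 4, with 31.7 against 20.8 CPM per kb.

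Over the 15 libraries the 8 genes did not follow a single pattern. The highest Pearson correlations of log2(CPM + 1) were those of Fhl2 with Zyx (0.947), Fhl1 with Flna (0.927) and Vcl with Ldb3 (0.917), and the lowest was that of Zyx with Tgfb1i1 (-0.188). These values describe 5 groups of 3 libraries rather than 15 independent points. Among 10159 genes with at least 10 CPM in a group, the 3 whose pattern was most like that of Srf were Rbl2 (r = 0.987), Cyp1b1 (0.977) and Cav2 (0.977). For Vcl they were Xpr1 (0.994), Vps33a (0.979) and Esyt2 (0.978), and for Zyx Mllt10 (0.988), Hipk2 (0.988) and Gem (0.983). Those of Flna included Scd4 (0.992) and Ppp2r3a (0.983), and those of Ldb3 included Pcdh1 (0.979) and Plin4 (0.978). Fhl1 was most like Itga3 (0.986), an integrin chain that binds laminin, then Styk1 (0.982) and Cln3 (0.980). Fhl2 was most like Tgfb2 (0.981), a transforming growth factor, then Acsl3 (0.977) and Mrgprf (0.9748). For Tgfb1i1 they were Kcnab2 (0.970), St3gal3 (0.966) and Rnft2 (0.963). Tgfb2 averaged 5.06, 4.20 and 1.90 CPM in KO, HET and WT at day 14 and 14.1 and 9.49 CPM in KO and WT at day 4.

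Genes that MRTF and SRF are known to drive in the cytoskeleton and in contraction were higher in KO than in WT in 15 of 22 at day 14, with 5 lower (median 0.52), and in 20 of 22 at day 4, with 2 lower (median 1.47). Of all genes tested, 30.9% were called higher and 32.2% lower in KO at day 14, and 35.7% and 33.8% at day 4. The median at day 4 was the same with Actg2, which had no count in WT, set at its bound. Acta2, smooth muscle actin, averaged 489 ± 12.6 CPM in KO and 25.9 ± 0.786 CPM in WT libraries of day 14. At day 4 the averages were 2116 ± 10.1 CPM for KO and 0.439 ± 0.133 CPM for WT. Myl9, the regulatory light chain of smooth muscle myosin, averaged 30.7 ± 0.887 CPM in KO and 4.30 ± 0.837 CPM in WT libraries of day 14, and at day 4 the averages were 479 ± 7.38 CPM for KO and 0.164 ± 0.142 CPM for WT (SD, n = 3 each). Both genes were called higher at both days (edgeR adjusted p of at most 2.53e-11). The genes that went the other way were tropomyosins Tpm1 and Tpm4 among others at day 14 (-0.34 ± 0.05 and -0.27 ± 0.05 log2, edgeR adjusted p = 1.51e-05 and 0.000147), and Ccn1, a matrix signalling protein, and Cald1, caldesmon, at day 4 (-0.83 ± 0.05 and -0.23 ± 0.04, edgeR adjusted p = 1.25e-09 and 0.000239). In HET cells 5 of the 22 were higher and 10 lower than in WT, beside 28.3% and 29.9% of all genes. Without HET replicate 2, the counts were 9 and 11. Acta2 (1.53 ± 0.07) and Tuft1 (0.51 ± 0.07) were among the higher, and Ccn1 (-0.66 ± 0.05) and Tpm4 (-0.57 ± 0.05) among the lower (log2; edgeR adjusted p = 7.05e-11, 2.02e-05, 3.77e-08 and 4.07e-08). Of 18 of these genes with a promoter window, 4 (22.2%) held a CArG box, as did 2 of 7 immediate early genes (28.6%), 1 of 24 core focal adhesion genes (4.17%), 1 of 19 relatives of the 8 genes (5.26%) and 0 of 15 cofactors and upstream regulators, beside the 1.81% of all genes.

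Immediate early genes listed as targets of TCF and SRF went the other way in KO cells at day 4. All 10 tested were lower than in WT and none was higher (median -2.36). The activity of TCF and SRF was not measured, and their part in this was not tested. The shares of all genes called at that day were 33.8% lower and 35.7% higher. Nr4a1, an orphan nuclear receptor, averaged 13.4 ± 0.636 CPM in KO and 247 ± 17.0 CPM in WT, and Fosl1, an AP-1 subunit, 67.5 ± 1.49 CPM in KO and 312 ± 12.6 CPM in WT (-4.21 ± 0.07 and -2.21 ± 0.06 log2, edgeR adjusted p = 3.72e-16 and 2.17e-14). At day 14, 3 were higher and 7 lower in KO (median -1.06), beside 30.9% and 32.2% of all genes. Fosl1 was then higher in KO (0.66 ± 0.06), as was Mcl1, a survival factor (0.71 ± 0.05), while the zinc finger factor Egr1 (-1.12 ± 0.07) and Ier2 (-1.80 ± 0.11) were lower (log2; edgeR adjusted p = 5.26e-08, 1.89e-09, 1.49e-09 and 1.98e-09). In HET cells 2 were higher, Mcl1 (0.47 ± 0.05) and Fos (0.37 ± 0.10), and 8 were lower, Nr4a1 (-1.03 ± 0.07) and Junb (-0.72 ± 0.08) among them (log2; median -0.58; edgeR adjusted p = 2.22e-07, 0.00444, 8.5e-09 and 9.08e-07). Over all genes, 28.3% were called higher and 29.9% lower in HET.

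**Figure D5:**
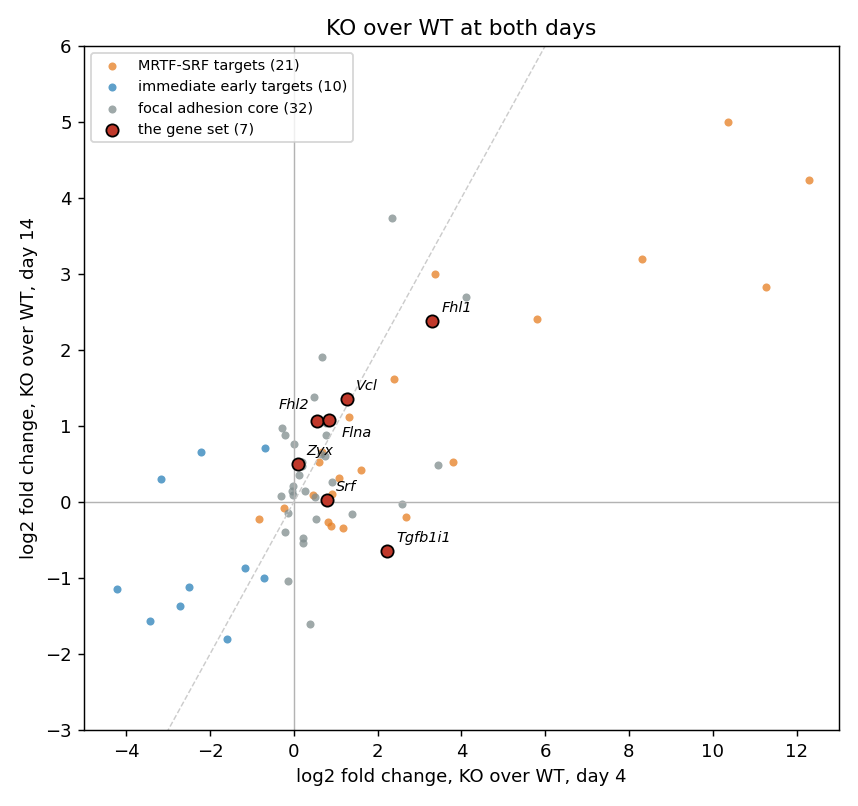
Log2 fold change of KO over WT at day 4 (x axis) and day 14 (y axis) for 7 of the genes (large red points; Ldb3 left out) and for 3 gene lists; the dashed line marks equal change, the axes have different scales, and Actg2 is left out because it had no count in WT at day 4. The immediate early genes (blue) all lie left of 0, most MRTF-SRF targets (orange) lie right of 0, and Tgfb1i1 lies right of 0 on the x axis and below 0 on the y axis.

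The regulators of SRF themselves moved in both directions. Of 17 cofactors and upstream regulators tested, 9 were higher and 2 lower in KO than in WT at day 14 (median 0.33), and 6 higher and 8 lower at day 4 (median -0.07), or 7 and 7 with total-count scaling (median 0.07). The shares of all genes were 30.9% higher and 32.2% lower at day 14, and 35.7% and 33.8% at day 4. Rock2, a kinase that promotes actomyosin contraction, averaged 205 ± 3.34 CPM in KO and 106 ± 7.97 CPM in WT at day 14 (0.95 ± 0.09 log2, edgeR adjusted p = 1.3e-07), and the formin Diaph1 was also higher (0.58 ± 0.06, edgeR adjusted p = 4.5e-07), while Rhob was lower (-0.31 ± 0.06, edgeR adjusted p = 0.000225). At day 4 the formin Fhod1 averaged 61.0 ± 2.09 CPM in KO and 21.8 ± 0.956 CPM in WT, and Scai, a suppressor of MRTF, 119 ± 3.16 CPM in KO and 60.0 ± 3.25 CPM in WT (1.48 ± 0.07 and 0.99 ± 0.12 log2, edgeR adjusted p = 4.77e-11 and 1.84e-06). Rhoc and the ternary complex factor Elk4 were lower in KO at that day (-0.92 ± 0.06 and -0.56 ± 0.06 log2, edgeR adjusted p = 2e-09 and 1.89e-07). In HET cells 9 were higher and 3 lower than in WT, beside 28.3% and 29.9% of all genes. Without HET replicate 2, the counts were 11 and 4. Both Rock1 and Rock2 were among the higher (0.71 ± 0.07 and 0.92 ± 0.09 log2, edgeR adjusted p = 1.67e-07 and 2.07e-07), and Mrtfa and Rhoa were lower (-0.43 ± 0.08 and -0.32 ± 0.04 log2, edgeR adjusted p = 0.000161 and 8.09e-06). The largest KO to WT differences in this list outside the genes above were those of Phactr1, an actin-binding regulator, at -1.63 ± 0.27 on day 14 and -3.98 ± 0.32 on day 4, and Mical2, an actin oxidase, at 1.34 ± 0.16 and 1.15 ± 0.15 (log2; edgeR adjusted p = 6.68e-05, 1.74e-08, 2.23e-06 and 4.75e-06). Myocd and Abra had too few counts to be tested.

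Of 32 core genes of focal adhesions, 18 were higher and 7 lower in KO than in WT at day 14 (median 0.31), and 21 higher and 3 lower at day 4 (median 0.32). The shares of all genes were 30.9% higher and 32.2% lower at day 14, and 35.7% and 33.8% at day 4. Actn1, an alpha-actinin that crosslinks actin at adhesions, averaged 391 ± 4.67 CPM in KO and 149 ± 13.8 CPM in WT at day 14, and Itga5, a fibronectin receptor chain, 287 ± 1.18 CPM in KO and 139 ± 4.16 CPM in WT (1.39 ± 0.08 and 1.04 ± 0.05 log2, edgeR adjusted p = 5.18e-10 and 3.3e-11). At day 4 the largest of those named were Tns1, a tensin, with 317 ± 4.48 CPM in KO and 18.4 ± 0.799 CPM in WT, and Csrp1, a LIM protein, with 379 ± 4.05 CPM in KO and 145 ± 4.62 CPM in WT (4.11 ± 0.16 and 1.39 ± 0.06 log2, edgeR adjusted p = 2.43e-12 and 7.4e-12). Evl and the kinase Src were lower in KO at day 14 (-1.60 ± 0.08 and -0.54 ± 0.05 log2, edgeR adjusted p = 2.09e-10 and 1.03e-07), and Lims1 and Git1 at day 4 (-0.31 ± 0.05 and -0.28 ± 0.06 log2, edgeR adjusted p = 3.32e-05 and 0.000401). In HET cells 16 were higher and 9 lower than in WT, beside 28.3% and 29.9% of all genes. With total-count scaling, the counts were 10 and 11. Actn1 (1.05 ± 0.08) and Tns1 (1.73 ± 0.15) were among the higher and Evl (-0.57 ± 0.08) among the lower (log2; edgeR adjusted p = 1.43e-08, 8.83e-08 and 1.6e-05). Sorbs2 had the largest decrease of those named in HET, with 3.84 ± 1.80 CPM in HET and 33.5 ± 2.74 CPM in WT (-3.11 ± 0.20 log2, edgeR adjusted p = 2.22e-09).

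Relatives of the 8 genes in the same protein families did not share a direction. Of 20 tested, 11 were higher and 5 lower in KO than in WT at day 14, or 8 and 6 with total-count scaling, and 9 were higher and 9 lower at day 4. The shares of all genes were 30.9% higher and 32.2% lower at day 14, and 35.7% and 33.8% at day 4. In HET cells 7 were higher and 9 lower, beside 28.3% and 29.9% of all genes. Without HET replicate 2, the counts were 8 and 8. Pdlim4, a PDZ and LIM protein like that of Ldb3, averaged 0.392 ± 0.255 CPM in KO, 2.66 ± 1.19 CPM in HET and 37.8 ± 5.15 CPM in WT at day 14, the reverse of Ldb3 (KO over WT -6.61 ± 0.28 log2, edgeR adjusted p = 1.73e-11). Ctnna1, alpha-catenin and a relative of vinculin, averaged 418 ± 7.99 CPM in KO, 360 ± 23.4 CPM in HET and 191 ± 14.0 CPM in WT (KO over WT 1.14 ± 0.06 log2, edgeR adjusted p = 1.33e-10). Fblim1, which binds filamin, averaged 141 ± 2.92 CPM in KO and 20.1 ± 0.952 CPM in WT at day 4 (2.81 ± 0.07 log2, edgeR adjusted p = 2.45e-14). Pdlim2 was also higher at day 4 (1.35 ± 0.07), and Pdlim1 (-0.84 ± 0.05) and Pdlim4 (-2.44 ± 0.21) were lower (log2; edgeR adjusted p = 7.19e-11, 5.17e-10 and 2.91e-08). Of the MEF2 factors, Mef2d was higher in KO at day 14 (1.41 ± 0.11) and Mef2a in HET (2.09 ± 0.13), while Ajuba, a zyxin relative, was lower in KO (-1.42 ± 0.08) and in HET (-0.79 ± 0.08; log2; edgeR adjusted p = 1.3e-08, 1.65e-09, 5.29e-10 and 4e-07). Fhl3 and Pdlim7 are in this list and in that of the MRTF targets.

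Markers of other cell types moved with some of these results, and their part in them was not tested. The summed level of 7 smooth muscle markers, 4 of which are also in the MRTF target list, was 551 to 572 CPM in KO, 116 to 130.1 CPM in HET and 67.7 to 76.1 CPM in WT libraries of day 14, and 2386 to 2398 CPM in KO and 26.6 to 29.8 CPM in WT libraries of day 4. In KO libraries most of it was Acta2, while Myh11, the defining smooth muscle myosin, averaged at most 0.186 CPM in any group. For Ldb3, the striated muscle factors Myod1, Myog and Myf5 had no count in KO libraries of either day. The 15 striated markers summed to 17.5 to 18.7 CPM in KO, 16.2 to 19.9 CPM in HET and 14.4 to 18.4 CPM in WT libraries of day 14, and to 6.01 to 6.85 CPM in KO and 1.14 to 1.77 CPM in WT libraries of day 4, and Des was the only one to average 1 CPM in any group. Fibroblast markers summed to 2685 to 2722 CPM in KO, 3969 to 4045 CPM in HET and 2385 to 2418 CPM in WT libraries of day 14, and to 1870 to 1880 CPM in KO and 1364 to 1371 CPM in WT libraries of day 4, with 6 of 8 at 1 CPM or more in every group. Dcn, decorin, went against that sum, with 42.5 CPM in KO and 503 CPM in WT at day 14, and with 22.02 CPM for KO and 527 CPM for WT at day 4. Pdgfrb went against it at day 14 only, with 16.1 CPM for KO and 100.2 CPM for WT. Its day 4 levels were 177.6 CPM for KO and 51.2 CPM for WT. Pdgfra went against it at day 4, with 25.7 CPM for KO and 50.5 CPM for WT. Its day 14 levels were 68.3 CPM for KO and 43.3 CPM for WT. Of the 6 macrophage markers, Cd68 averaged 37.9 CPM in KO and 6.27 CPM in WT at day 14, while Adgre1 had no count in KO. Their sum was 119 to 126 CPM in KO, 141 to 175.5 CPM in HET and 36.5 to 38.5 CPM in WT libraries of day 14, and 83.8 to 87.2 CPM in KO and 79.3 to 83.9 CPM in WT libraries of day 4. Most of it was Cd14, with 81.6, 146 and 29.0 CPM in KO, HET and WT at day 14. At day 4 Cd14 averaged 79.6 CPM in KO and 78.4 CPM in WT. Ptprc averaged at most 0.264 CPM in any group. At day 14 Csf1r averaged 0.0566 CPM in KO and 0.590 CPM in WT, and Lyz2 2.16 and 1.27 CPM. The 5 endothelial markers summed to 2.93 to 4.43 CPM in KO, 1.42 to 2.44 CPM in HET and 3.50 to 4.30 CPM in WT libraries of day 14. At day 4 the sum was 0.634 to 0.799 CPM in KO and 11.2 to 14.4 CPM in WT libraries, with Kdr at 0.294 CPM in KO and 9.24 CPM in WT, and Tie1 had no count in KO or in WT at that day. The 5 epithelial markers summed to at most 4.32 CPM in any library. Of 8 osteoblast markers, Runx2, Alpl, Spp1 and Col1a1 passed 1 CPM in every group, Col1a1 being in the fibroblast list too, and Sp7, Bglap, Ibsp and Dmp1 averaged at most 0.249 CPM in any group. Runx2 averaged 31.8 ± 1.05 CPM at day 14 and 50.8 ± 2.89 CPM at day 4 in KO, and 20.6 ± 1.503 CPM at day 14 and 71.2 ± 1.54 CPM at day 4 in WT. Spp1 averaged 1742 ± 35.4 CPM at day 14 and 5068 ± 39.8 CPM at day 4 in KO, and 1461 ± 121 CPM at day 14 and 3529 ± 15.9 CPM at day 4 in WT (SD, n = 3 each). Libraries of day 14 thus averaged less of both. Alpl and Col1a1 went the other way. Alpl averaged 31.96 CPM at day 14 and 3.39 CPM at day 4 in KO. In WT it averaged 127.7 CPM at day 14 and 22.01 CPM at day 4, and in HET 8.29 CPM at day 14. Col1a1 averaged 971 CPM at day 14 and 770 CPM at day 4 in KO, and 1004 and 107.1 CPM in WT. No sample from before the medium was analysed here.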

How the data were processed

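RNA-seq of 15 mouse libraries was used. The deposited values are raw counts per gene. Per the submitters' processing notes, the authors used TopHat2 2.1.0, HTSeq and DESeq2, with the build GRCm38.p4. No source used here gives the strand setting or annotation release. Per the labels' protocols the kit was TruSeq RNA v2. GENCODE M21 (GRCm38) gave symbols to 46091 of 46603 IDs. Later steps were computed here from the counts. After filterByExpr and TMM scaling, edgeR 4.0.16 (R 4.3.3) fitted 1 coefficient per group over 15296 genes with robust quasi-likelihood, and p-values were adjusted by Benjamini-Hochberg over all genes of a comparison. The SE is the log2 fold change over the square root of its F. CPM uses library totals (19878449 to 47486736 counts) multiplied by TMM factors. Bounds against 0 counts use 3 counts over the group and cover counting error only. The pipeline was tested on simulated data.

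Actb and all 8 genes are named, and from each of 5 lists up to 2 higher and 2 lower genes per comparison with the smallest adjusted p and at least 10 CPM. Likeness is Pearson's r of log2(CPM + 1), and the top 3 genes are given, except where a gene is not reported here. The genes and lists were chosen with earlier results of these data known. Genes outside this rule (Ap3m1, Epha1, Phactr1, Mical2, Actg2, Myocd, Abra, Fhl3, Pdlim7 and marker genes) were named after their values were seen. Alternatives were RLE scaling, total counts, DESeq2 1.42.0, other filters, only the groups compared, a replicate block and leaving out each library. Libraries with the same replicate number mostly did not deviate together: of 30 such pairs across groups 2 had a correlation over 0.1, and the median was -0.00896. The correlations ran from -0.396 to 0.456.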

Additional observations from a re-analysis of the deposited data

Results flagged for a closer look

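The change between day 14 and day 4 differed between KO and WT cells for 6 of the 8 genes by the interaction test (edgeR adjusted p under 0.05), and these results were picked out for that reason. On the log2 scale, KO minus WT, the difference was -2.88 for Tgfb1i1, -0.93 for Fhl1, -0.77 for Srf, 0.51 for Fhl2 and 0.41 for Zyx. For Tgfb1i1 and Srf the days moved in opposite directions, falling in KO and rising in WT. For Ldb3 the fitted value was -7.41, which depends on the prior count of the fit because WT at day 4 had no count, and is no measure of size. The same libraries of both days enter each of these values. Among all genes tested, 30.7% had a higher and 34.0% a lower interaction, so passing this test was common.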

How the results depend on the processing

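The number of the 8 genes called stayed within 1.5 times the main count in all 7 comparisons under every alternative run. Of 775 recomputed values of single genes, 755 kept their direction and side of the threshold, no call was lost, 10 passed the threshold that had not, and 10 changed sign, all of them values that were not called. Ldb3 between the days in WT gave no value with only those groups fitted. With total-count scaling, Srf over WT at day 14 was -0.0317 in KO and -0.0508 in HET, KO over HET was 0.0191, and the Vcl interaction was -0.12. That scaling moved the median of all genes from 0.03 to 0.17 in KO over WT at day 4, from -0.02 to -0.12 in HET over WT, from 0.08 to 0.28 between the days in WT and from -0.08 to -0.27 in the interaction, so small differences depend on it. Leaving out each library in turn gave -0.00222 to 0.0436 for Srf in KO over WT at day 14, -0.0652 to 1.17 for Ldb3 in HET over WT, -0.0456 to 0.0861 for Fhl2 in KO over HET, and -0.0300 to 0.277 for the Vcl interaction. The count of genes called ran from 5 to 7 in HET against WT when libraries were left out, and did not move in the other 6 comparisons. The replicate block gave 7 genes called in KO over WT at either day, 5 in HET over WT, 6 in KO over HET, 7 between the days in KO and in WT, and 6 in the interaction, and changed no call. The Ldb3 counts, 0 to 510 per library, set the precision of its values in HET and WT. The cause of each change of sign was not tested.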
